A study of Zea mays with 12 samples.

Results

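The 4 genes described here were grouped by their annotation under import of sugar and amino acids into the developing maize kernel. Their role in that import was not tested. They are *SWEET1a* (*Zm00001d000222*), a probable amino acid permease 7 gene (*Zm00001d001984*, written *AAP7* below), *INCW4* (*Zm00001d001941*, invertase cell wall4) and *CWINV3* (*Zm00001d001944*, a cell wall invertase), out of 720 genes in the table analysed here. They were chosen by this annotation and selected on measured values, since the difference between mutant and wild type in these same samples was already known for some of them. That difference is therefore given as a description, with no test. RNA was sequenced from whole kernels of the wild type (WT) and of *smk7a*, a recessive small-kernel mutant isolated from an EMS (ethyl methanesulfonate) mutant collection in the inbred line B73. Kernels were collected at 12 and 20 days after pollination (DAP), with 3 biological replicates in each of the 4 groups and 12 samples in all. Homozygous *smk7a* does not grow into a normal plant, so the mutation is carried by selfed heterozygotes, and WT and mutant kernels came from shared ears that segregated for the mutation (generation M8). Whether WT kernels were homozygous or heterozygous, and how many kernels and ears made up a replicate, is not given in the sources used here.

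A maize kernel has no vascular connection to its endosperm, and nutrients leave the maternal phloem at the kernel base and cross the apoplast into the basal endosperm transfer layer. SWEET proteins are uniporters that let sugars pass a membrane down their gradient. Amino acid permeases carry amino acids into cells together with protons, against the gradient. Cell wall invertases split sucrose into glucose and fructose outside the cell, which keeps sucrose flowing towards the kernel and supplies hexoses for uptake. By their names, *INCW4* and *CWINV3* stand for this last step, and *SWEET1a* and *AAP7* for membrane transport of sugars and amino acids, respectively.

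Expression was deposited as FPKM, the number of sequenced fragments divided by transcript length and by the mapped fragments of the library, so levels can be compared between genes. FPKM hold no read totals, and the counting error of a value was not computed. The 2 developmental stages were compared within each genotype with limma on log2(FPKM + 0.1), over genes above 1 FPKM in at least 3 of the 6 samples, a filter that *SWEET1a* and *AAP7* passed and both invertase genes did not. A gene was called when it changed more than 2-fold with an adjusted p-value under 0.05. From 12 to 20 DAP the median log2 fold change of all genes tested was -0.55 in the WT (344 genes) and -0.44 in *smk7a* (364 genes), so a typical gene of this table was lower at 20 DAP in FPKM. With median of ratios scaling, in which the typical gene is set equal across samples, these medians became -0.0027 and -0.0065. Between the genotypes, *smk7a* over WT, the medians were 0.48 at 12 DAP and 0.53 at 20 DAP, and 0.015 and -0.023 after scaling. Changes of the 4 genes are given below on both scales.

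The labelled tissue was checked with markers. All 3 endosperm markers were detected, and their summed level was 519 to 548 FPKM (WT) and 195 to 259 FPKM (*smk7a*) at 12 DAP, against 282 to 331 FPKM (WT) and 183 to 322 FPKM (*smk7a*) at 20 DAP. The basal transfer layer marker *BETL4* (*Zm00001d000161*) was among them. Genes for the embryo were taken by their description alone, and all 7 found were described as late embryogenesis abundant. Only 1 of them was above 0, at 12.4 to 19.9 FPKM (WT) and 28.0 to 36.2 FPKM (*smk7a*) at 12 DAP. At 20 DAP it was at 10.0 to 12.7 and 11.2 to 15.4 FPKM. Whether this gene is particular to the embryo is not shown by its description, so it is no measure of embryo content. Of 8 genes of green tissue, 5 were above 0. Their sum at 12 DAP was 7.83 to 12.3 FPKM (WT) and 4.27 to 6.02 FPKM (*smk7a*), without overlap. At 20 DAP it was 3.63 to 5.44 FPKM (WT) and 1.84 to 5.19 FPKM (*smk7a*), with overlap. Between stages the green sum was lower at 20 DAP without overlap in the WT and overlapped in *smk7a*. Its genes did not move alike. *Zm00001d001857* (light harvesting complex photosystem II subunit 6) was at 4.14 to 9.39 FPKM (WT) and 0.708 to 0.776 FPKM (*smk7a*) at 12 DAP. *Zm00001d001812* (Rubisco Assembly Factor 1) overlapped there, at 2.81 to 3.69 and 3.13 to 5.22 FPKM. At 20 DAP both genes overlapped between genotypes. Between stages *Zm00001d001812* was lower at 20 DAP without overlap in both genotypes, and *Zm00001d001857* overlapped in both. In *smk7a* at 12 DAP the endosperm sum was lower and the late embryogenesis abundant gene higher than in the WT without overlap. At 20 DAP the genotypes overlapped for both. Within the endosperm sum, only *BETL4* overlapped (88.0 to 132 FPKM in the WT, 54.7 to 156 FPKM in *smk7a*). *Zm00001d000002* (dull endosperm1) was lower in *smk7a* without overlap, at 26.8 to 28.1 against 28.7 to 36.3 FPKM. So was *Zm00001d000418* (endosperm specific protein1), at 102 to 141 against 158 to 171 FPKM. From 12 to 20 DAP the endosperm sum was lower without overlap in the WT and overlapped in *smk7a*. In *smk7a* dull endosperm1 alone was higher at 20 DAP without overlap (9.08 to 17.7 FPKM at 12 DAP), while the other endosperm markers overlapped. The late embryogenesis abundant gene overlapped in the WT and was lower without overlap in *smk7a*. The part of these markers in the differences described below was not tested. In whole kernels, fewer cells of a type and less RNA per cell cannot be told apart.

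*SWEET1a* was expressed at a moderate level in all 12 samples, was lower at 20 than at 12 DAP in the WT, and stood higher in *smk7a* than in the WT at both stages. At 12 DAP the WT replicates were at 12.8, 10.8 and 9.00 FPKM (mean 10.9 ± 1.92, SD, n = 3). At 20 DAP they were at 6.14, 5.15 and 7.61 FPKM (6.30 ± 1.24, SD, n = 3). All 3 WT values at 20 DAP thus lay below all 3 at 12 DAP, and the nearest pair, 7.61 and 9.00 FPKM, was close. In *smk7a* the values at 12 DAP were 25.6, 40.7 and 29.7 FPKM (32.0 ± 7.82, SD, n = 3), and those at 20 DAP were 22.4, 30.3 and 28.7 FPKM (27.1 ± 4.17, SD, n = 3). The mutant's values at both stages overlapped, and the highest value of the gene was that of *smk7a* replicate 2 at 12 DAP. Within each sample, *SWEET1a* ranked between 90 and 116 of the 720 genes in the WT at 12 DAP and between 113 and 138 at 20 DAP. In *smk7a* its ranks were 32 to 54 and 31 to 47.

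**Figure D1:**
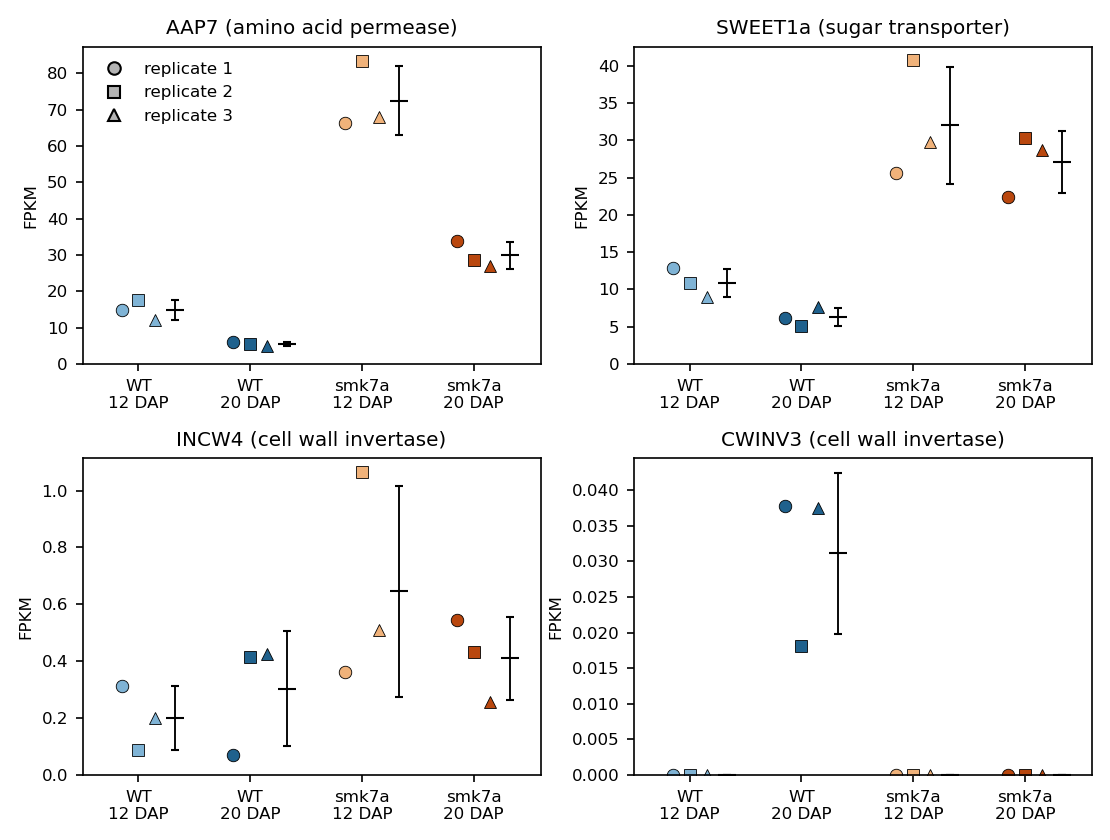
FPKM of *AAP7*, *SWEET1a*, *INCW4* and *CWINV3* in each of the 12 samples, by genotype and stage (12 or 20 DAP). Symbols are replicates, and the bars beside them are the mean and SD (n = 3). *AAP7* falls from 12 to 20 DAP in both genotypes without overlap, *SWEET1a* overlaps between stages in *smk7a*, and both invertase genes stay near or under 1 FPKM.

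From 12 to 20 DAP *SWEET1a* in the WT was 1.73-fold lower, a log2 fold change of -0.78 (SE 0.19, 95% interval -1.21 to -0.36, limma adjusted p = 0.00552), which is under the fold change of 2 needed for a call. A fall with an adjusted p-value under 0.05 alone was common, at 56.7% of the genes tested. After scaling the change was -0.24 (SE 0.15, limma adjusted p = 0.288, 95% interval -0.59 to 0.11), and the replicates of both stages overlapped. After scaling a difference of *SWEET1a* in the WT was thus not resolved, though the interval leaves room for a fall. On that scale 11.9% of the genes tested still fell with an adjusted p-value under 0.05. In *smk7a* the change was -0.22 (SE 0.20, 95% interval -0.69 to 0.25, limma adjusted p = 0.373), and after scaling it turned to 0.22 (SE 0.18, 95% interval -0.21 to 0.65, limma adjusted p = 0.384). No change with stage was thus found for *SWEET1a* in the mutant, though the intervals leave room for a change of either sign. Whether the change with stage differed between the genotypes was not tested.

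Set beside the WT, *SWEET1a* in *smk7a* was 2.94-fold higher at 12 DAP and 4.31-fold higher at 20 DAP in mean FPKM. On the log2 scale this was 1.54 and 2.10, or 1.05 and 1.53 after scaling. No *smk7a* value overlapped a WT value at either stage. A higher level without overlap was common, at 40.7% of 548 genes above 0 at 12 DAP and 50.3% of 535 at 20 DAP. By size of this difference the gene stood in place 27 of 365 genes at 12 DAP and in place 4 of 336 at 20 DAP, counted from the highest. Since this difference was known for some of the genes when they were chosen, a high place is no finding.

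*AAP7* was the most strongly expressed of the 4 genes at 12 DAP, fell from 12 to 20 DAP in both genotypes, and was higher in *smk7a* at each stage. The WT replicates had 14.9, 17.5 and 12.2 FPKM (14.9 ± 2.66, SD, n = 3) at the earlier stage, 12 DAP, and 6.04, 5.53 and 4.82 FPKM (5.46 ± 0.610, SD, n = 3) at the later, 20 DAP. The *smk7a* replicates had 66.3, 83.3 and 67.9 FPKM (72.5 ± 9.40, SD, n = 3) at 12 DAP, followed by 34.0, 28.7 and 26.9 FPKM (29.9 ± 3.66, SD, n = 3) at 20 DAP. No group overlapped another, and the order from the lowest was WT at 20 DAP, WT at 12 DAP, *smk7a* at 20 DAP and *smk7a* at 12 DAP. The mutant at 20 DAP thus remained above the WT at 12 DAP. The replicates agreed more closely than those of *SWEET1a* in most groups, with a coefficient of variation from 11.2% to 17.9%. Among the 720 genes *AAP7* took ranks 61 to 84 in 12 DAP WT samples, 130 to 159 in 20 DAP WT samples, 11 to 18 in 12 DAP *smk7a* samples and 24 to 41 in 20 DAP *smk7a* samples.

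The fall of *AAP7* with stage was 2.72-fold in the WT, a log2 fold change of -1.42 (SE 0.18, 95% interval -1.81 to -1.03, limma adjusted p = 0.000256). In *smk7a* it was 2.43-fold, with -1.28 (SE 0.14, 95% interval -1.60 to -0.95, limma adjusted p = 0.000643). Both falls passed both thresholds, as did a fall in 15.7% of the genes tested in the WT and in 16.2% in *smk7a*. By size the fall took place 21 of 344 genes in the WT and place 41 of 364 in *smk7a*, counted from the largest fall. After scaling the changes were -0.87 (SE 0.14, 95% interval -1.19 to -0.55, limma adjusted p = 0.00479) and -0.83 (SE 0.15, 95% interval -1.17 to -0.49, limma adjusted p = 0.00587). *AAP7* was then still lower at 20 DAP in both genotypes, and without overlap, but its fold change was below 2 and it was not called. On the scaled values, 17.3% of the genes tested in *smk7a* fell with an adjusted p-value under 0.05, against 47.3% as deposited.

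**Figure D2:**
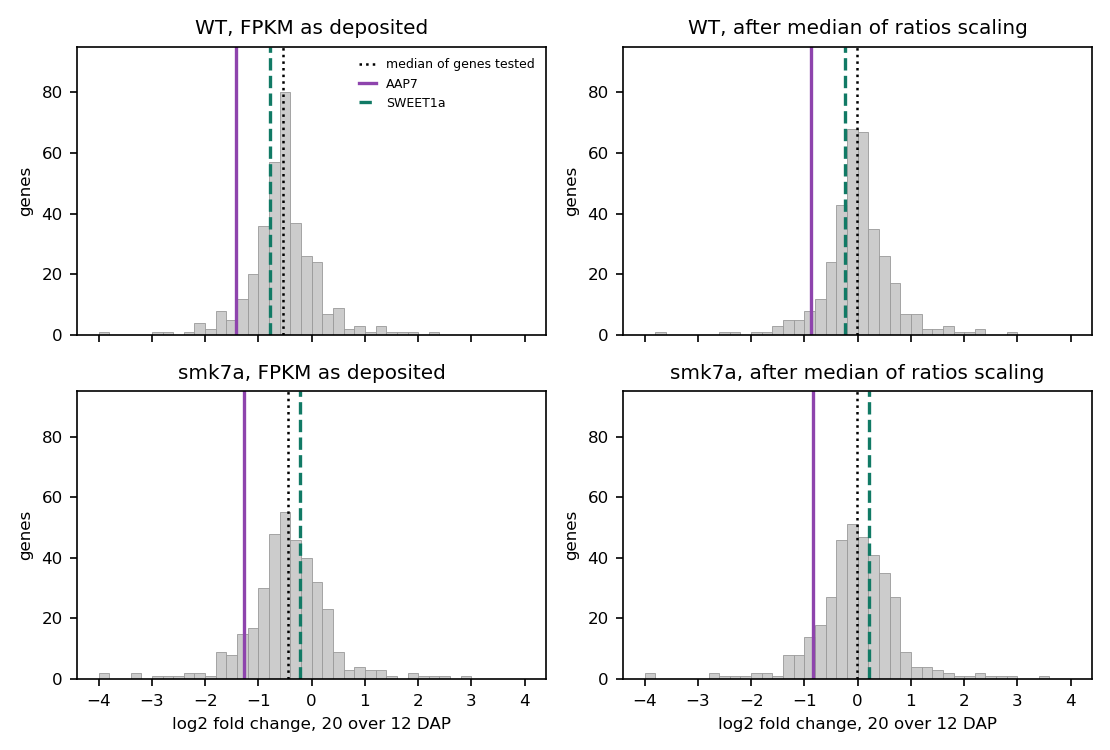
Number of genes by log2 fold change of FPKM + 0.1 from 12 to 20 DAP, in the WT (344 genes) and *smk7a* (364 genes), with FPKM as deposited or after median of ratios scaling. Genes beyond 4 in size are drawn in the end bins, and the dotted line is the median of the genes tested. The *AAP7* line lies to the left of it in all 4 panels, and the *SWEET1a* line lies to the left of it in the WT and to the right in *smk7a*.

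The absence of overlap between stages can be read against the whole table. Of the genes above 0 in at least 1 sample, 45.7% of 532 lay wholly lower at 20 DAP in the WT and 40.2% of 547 did so in *smk7a*. After scaling these shares were 16.2% and 19.6%. *AAP7* was among them in both genotypes on both scales, and *SWEET1a* only in the WT and only as deposited. With 3 samples against 3, the two-sided exact permutation test cannot go below p = 0.1, which *AAP7* reached in both genotypes and *SWEET1a* in the WT. In *smk7a*, *SWEET1a* had p = 0.5 by the exact permutation test.

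Relative to the WT, *AAP7* in *smk7a* was 4.87-fold higher at 12 DAP and 5.46-fold higher at 20 DAP. On the log2 scale this was 2.28 and 2.43, or 1.80 and 1.86 after scaling, places 7 of 365 and 2 of 336 from the highest. The call thresholds for a higher level in *smk7a* were met by 18.6% of the genes tested at 12 DAP and 14.3% at 20 DAP, and a higher level without overlap was seen for 40.7% of 548 and 50.3% of 535 genes above 0. These shares of all genes are given as background only. The difference between genotypes is how some of the 4 genes came to be chosen, so it was not tested for them and nothing is read from it.

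Setting the transporters side by side removes any scaling of the samples. The ratio of *AAP7* to *SWEET1a* FPKM within a sample was looked at after the values were seen. The WT ratios were 1.16, 1.62 and 1.36 at 12 DAP and 0.984, 1.07 and 0.634 at 20 DAP. In *smk7a* they were 2.59, 2.04 and 2.28 at 12 DAP and 1.52, 0.948 and 0.937 at 20 DAP. At 20 DAP *AAP7* was thus close to or below *SWEET1a* in all samples but replicate 1 of *smk7a*, while at 12 DAP it was above it in all 6. The mean ratio went from 1.38 ± 0.231 to 0.897 ± 0.232 (SD, n = 3) in the WT and from 2.31 ± 0.273 to 1.13 ± 0.331 (SD, n = 3) in *smk7a*, log2 changes of -0.64 and -1.06. In both genotypes the 20 DAP values lay below those at 12 DAP, with the smallest p of the exact permutation test, 0.1. Over both genotypes together, with stage labels permuted within each, the mean log2 change of the ratio was -0.85 (exact permutation test, p = 0.005, the smallest it can give). The ratio was lower in 6 of 6 samples at 20 DAP than in every sample of the same genotype at 12 DAP. As the ratio was formed after these values were seen, the p-values describe it and lend it no support. Between genotypes the ratio was higher in *smk7a* at 12 DAP without overlap, and the values overlapped at 20 DAP.

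**Figure D3:**
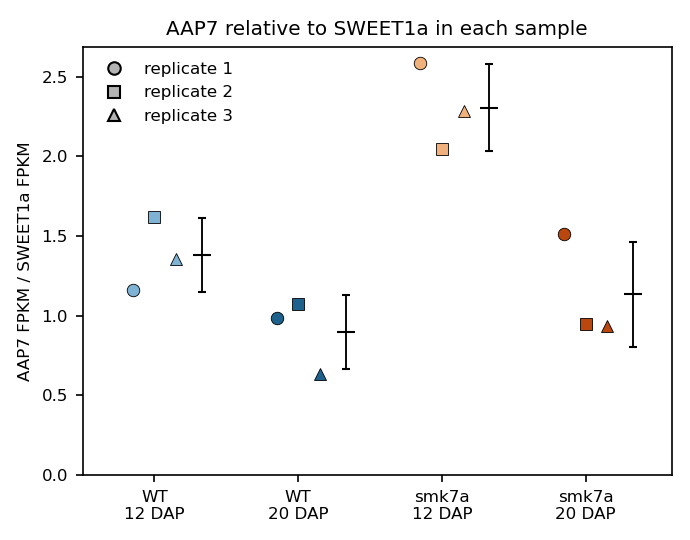
Ratio of *AAP7* FPKM to *SWEET1a* FPKM in each of the 12 samples, by genotype and stage, with replicates as symbols and the mean and SD (n = 3) beside them. The ratio is lower at 20 than at 12 DAP in both genotypes, and *smk7a* at 12 DAP lies highest, between 2.04 and 2.59.

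The same test over both genotypes was made for each gene, so 4 genes and the ratio were tested, unadjusted. *AAP7* changed by -1.35 (exact permutation test, p = 0.005) and by -0.88 after scaling (exact permutation test, p = 0.005). *SWEET1a* changed by -0.50 (exact permutation test, p = 0.03) and by -0.035 after scaling (exact permutation test, p = 0.865). A fall with stage that held on both scales was thus measured for the amino acid permease and not for the sugar transporter. The p for *SWEET1a* rose to 0.05, 0.055 and 0.065 by the exact permutation test when WT replicate 1 at 12 DAP, *smk7a* replicate 2 at 12 DAP or *smk7a* replicate 1 at 20 DAP was left out, with changes of -0.44, -0.41 and -0.44. These tests use the samples from which the genes were chosen, so they do not show that the genes are unusual among transporters.

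Both invertase genes were barely expressed. Invertases outside the part of the genome analysed here are not covered. *MN1*, which the study names as a cell wall invertase of the basal endosperm transfer layer, was not examined. In WT kernels *INCW4* had 0.313, 0.0889 and 0.199 FPKM (0.200 ± 0.112, SD, n = 3) at 12 DAP, followed by 0.0710, 0.415 and 0.425 FPKM (0.304 ± 0.202, SD, n = 3) at 20 DAP. Mutant kernels had 0.361, 1.06 and 0.511 FPKM (0.645 ± 0.371, SD, n = 3) at 12 DAP, followed by 0.545, 0.433 and 0.256 FPKM (0.411 ± 0.146, SD, n = 3) at 20 DAP. Only *smk7a* replicate 2 at 12 DAP was above 1 FPKM, and the stages overlapped in both genotypes. The log2 difference between stages was 0.33 in the WT (exact permutation test, p = 0.6) and -0.47 in *smk7a* (exact permutation test, p = 0.5), or 0.69 and -0.11 after scaling. Over both genotypes it was -0.072 (exact permutation test, p = 0.86), and 0.29 after scaling (exact permutation test, p = 0.485). No change of *INCW4* with stage was detectable at these levels.

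Relative to the WT, mean *INCW4* in *smk7a* was 3.23-fold higher at 12 DAP, a log2 difference of 1.27, and 1.35-fold higher at 20 DAP, a log2 difference of 0.47. After scaling the log2 differences were 0.91 and 0.039. The value at 12 DAP was 0.44 with a pseudocount of 1, and that at 20 DAP turned to -0.068 without WT replicate 1, so its direction at 20 DAP rests on that sample. At 12 DAP the lowest *smk7a* value, 0.361 FPKM, was just above the highest WT value, 0.313 FPKM, and the groups overlapped after scaling. At 20 DAP they overlapped on both scales.

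*CWINV3* was listed at 0 in 9 of 12 samples. The exceptions were the WT replicates at 20 DAP, at 0.0378, 0.0181 and 0.0375 FPKM (0.0311 ± 0.0113, SD, n = 3), where replicates 1 and 3 were 2.08 and 2.07 times replicate 2. No fold change is given against groups listed at 0. The exact permutation test of the stages in the WT gave p = 0.1, the smallest possible, and over both genotypes it also gave p = 0.1. A further gene described as CWINV3, *Zm00001d001943*, lies between *INCW4* and *CWINV3* in the order of identifiers and had 0.0790, 0.118 and 0.0584 FPKM in WT kernels at 12 DAP, followed by 0, 0 and 0.125 FPKM at 20 DAP. In *smk7a* it had 0, 0.0647 and 0.207 FPKM at 12 DAP, followed by 0.251, 0.237 and 0.189 FPKM at 20 DAP, which was above the WT without overlap at 20 DAP only. How reads that match more than 1 gene were assigned is not given in the sources used here, and the sequences of these 3 genes were not compared, so whether they share reads is not known here. Their sum was 0.207 to 0.392 FPKM in the WT at 12 DAP, 0.109 to 0.588 FPKM in the WT at 20 DAP, 0.361 to 1.13 FPKM in *smk7a* at 12 DAP and 0.444 to 0.795 FPKM in *smk7a* at 20 DAP. The sums of the stages overlapped in both genotypes.

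Another 13 genes of the table were related to sugar or amino acid import by the keywords of their deposited annotation, and 7 of them were above 1 FPKM in at least 3 samples. The keywords also took genes annotated only with a response to sucrose or a part in nucleotide sugar metabolism, so the list is broader than transport. In the WT 7 were tested between stages, of which 0 were called higher and 1 lower, with a median log2 fold change of -0.81 beside -0.55 for all genes. In *smk7a* 6 were tested, of which 0 were called higher and 2 lower, with a median of -0.57 beside -0.44. After scaling the counts were 1 higher and 0 lower in the WT, and 1 higher and 1 lower in *smk7a*, with medians of -0.26 and -0.12. As deposited, 6 of the 7 tested in the WT and 5 of the 6 tested in *smk7a* lay below 0, and after scaling 5 and 4 did. Of all genes tested, 84.6% (WT) and 76.9% (*smk7a*) lay below 0 as deposited, and 50.3% and 50.5% after scaling. As deposited, 15.7% (WT) and 16.2% (*smk7a*) of all genes tested were called lower. After scaling 17 of 344 genes were called higher and 15 lower in the WT, and 18 of 364 higher and 25 lower in *smk7a*. Between genotypes, 6 were tested at each stage, of which 1 was called higher at 12 DAP (median 0.69 beside 0.48 for all genes) and 0 at 20 DAP (0.65 beside 0.53), with 0 called lower. Among all genes tested, 18.6% were called higher at 12 DAP and 14.3% at 20 DAP as deposited. After scaling 0 genes of the list were called in either direction at either stage.

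Of the transporters in that list, *Zm00001d000021* (glucose 6-phosphate/phosphate translocator1) was the most strongly expressed. Translocators of this kind carry glucose 6-phosphate into plastids, where it feeds starch synthesis. Between the stages its mean in the WT went from 137 ± 4.71 to 88.2 ± 1.03 FPKM, and that in *smk7a* from 126 ± 15.4 to 92.3 ± 8.02 FPKM (SD, n = 3 each). The level at 20 DAP was lower without overlap in both genotypes, with log2 fold changes of -0.63 (SE 0.09, limma adjusted p = 0.000307) and -0.45 (SE 0.13, limma adjusted p = 0.0231), neither above a fold change of 2. After scaling these changes were -0.080 (limma adjusted p = 0.632) and -0.0047 (limma adjusted p = 0.981), so the translocator followed the shift of the table as a whole, while *AAP7* fell further than it. As deposited, its genotypes overlapped at both stages, while after scaling it was lower in *smk7a*, at -0.61 (limma adjusted p = 0.0177) at 12 DAP and -0.51 (limma adjusted p = 0.00737) at 20 DAP, under the fold change of 2.

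*Zm00001d000183* (monosaccharide transporter4) was the one gene of the list tested whose level as deposited was higher at 20 DAP in both genotypes. Its mean went from 1.44 ± 0.618 to 2.05 ± 0.319 FPKM in WT kernels and from 2.18 ± 0.639 to 3.47 ± 0.590 FPKM in mutant kernels (SD, n = 3 each). The WT values overlapped between stages, at 1.07 to 2.15 FPKM and 1.70 to 2.32 FPKM. As deposited, neither difference passed the test, with 0.54 in the WT (limma adjusted p = 0.117) and 0.68 in *smk7a* (limma adjusted p = 0.0533). After scaling both passed and were called higher, at 1.06 (SE 0.31, limma adjusted p = 0.0350) and 1.11 (SE 0.24, limma adjusted p = 0.0113). On that scale *Zm00001d000346* (a protein kinase) was also above 0 in both genotypes without passing the test. It stood at 0.34 in the WT (limma adjusted p = 0.137) and 0.017 in *smk7a* (limma adjusted p = 0.956). Against the common shift of the table, monosaccharide transporter4 thus rose where *AAP7* fell. Monosaccharide transporters of this family take up hexoses together with protons.

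Among the other genes, *Zm00001d000184* (single-repeat Myb protein1, a putative transcription factor by its name) was called lower at 20 DAP in both genotypes, with -1.14 (SE 0.16, limma adjusted p = 0.000315) and -1.11 (SE 0.13, limma adjusted p = 0.000812). *Zm00001d001979* (probable UDP-arabinopyranose mutase 5, an enzyme of cell wall sugar supply) was called lower in *smk7a* and not in the WT, with -1.53 (SE 0.11, limma adjusted p = 0.000170) beside -0.81 in the WT (SE 0.20, limma adjusted p = 0.00552), and the difference between these was not tested. After scaling the Myb gene was still lower in the WT, at -0.60 (limma adjusted p = 0.00975), and in *smk7a*, at -0.67 (limma adjusted p = 0.00709). Like *AAP7*, it was then under the fold change of 2 and not called in either genotype. The mutase gene was still called in *smk7a*, at -1.08 (limma adjusted p = 0.00138). *Zm00001d001789* (phosphomannomutase) stood at -0.87 in the WT (SE 0.17, limma adjusted p = 0.00193) and -0.68 in *smk7a* (SE 0.15, limma adjusted p = 0.00946), or -0.32 and -0.24 after scaling, and was not called in either. The remaining genes tested, *Zm00001d000346* (a protein kinase) and, in the WT only, *Zm00001d000026* (a UDP-N-acetylglucosamine transporter), did not pass the test.

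**Figure D4:**
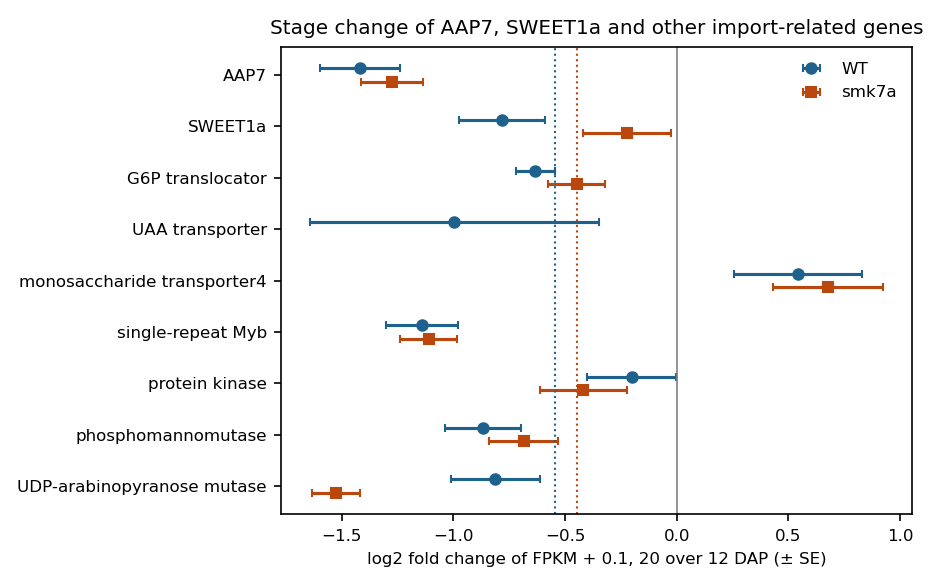
Log2 fold change of FPKM + 0.1 from 12 to 20 DAP (20 over 12 DAP), as deposited, for *AAP7*, *SWEET1a* and the other import-related genes tested, with limma's SE as bars. Circles are the WT, squares are *smk7a*, and the dotted lines are the medians of all genes tested in each (-0.55 and -0.44). Monosaccharide transporter4 is the only gene to the right of 0 in both genotypes.

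Finally, the genes whose pattern over the 12 samples was most like that of each transporter were found among 375 genes above 1 FPKM in at least 3 samples. For *SWEET1a* they were *Zm00001d002006* (H(+)-ATPase 5, Pearson's r 0.97), *Zm00001d002035* (Endonuclease 2, 0.96) and *Zm00001d001903* (Carboxylesterase SOBER1, 0.95), and these 3 also led after scaling, at 0.91, 0.92 and 0.93. Plasma membrane proton ATPases set up the proton gradient that amino acid permeases use. The ATPase gene was not among the 3 genes most like *AAP7*, and a link in function was not tested. The ATPase gene averaged 29.0 FPKM at 12 DAP and 19.3 FPKM at 20 DAP in WT kernels, and 62.7 and 58.4 FPKM in mutant kernels. For *AAP7* they were *Zm00001d001903* (0.99), *Zm00001d000041* (alpha/beta-hydrolase, 0.98) and *Zm00001d002175* (receptor-like protein kinase FERONIA, 0.97), and after scaling r was 0.95, 0.95 and 0.69. *SOBER1* was thus on both lists, at means of 8.49, 5.27, 16.8 and 12.0 FPKM in the WT at 12 and 20 DAP and *smk7a* at 12 and 20 DAP. *SWEET1a* and *AAP7* themselves correlated at r = 0.93 (0.85 after scaling). These correlations are descriptions over samples that share 4 group means and a library each, and high values were frequent, with a median r over all genes of 0.67 with *SWEET1a* and 0.75 with *AAP7*.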

How the data were processed

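The authors extracted RNA from whole WT and *smk7a* kernels, made stranded mRNA libraries, trimmed the reads (Trimmomatic per the submitters' processing notes), mapped them with HISAT2 to the B73 RefGen_V4 genome and kept perfectly matching reads. They deposited FPKM per gene and sample. The program that made the FPKM is not given in the sources used here. The copy analysed here ends after 720 genes, so it covers a part of the genome, and 0 value columns were left unused. The files give no read counts per gene, and the read totals that the study lists per library were not used here, so counting error was not computed. No sequences or coordinates are printed.

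Members and gene lists were chosen with earlier results of these data known. Groups came from the sample labels. Values were taken as log2(FPKM + 0.1). Genes had to exceed 1 FPKM in 3 or more of a comparison's samples, and were then fitted with limma 3.58.1 (lmFit, eBayes with trend) in R 4.3.3, and p-values were adjusted by Benjamini-Hochberg over all genes tested. All adjusted p-values are from limma. Since the sources do not say which ears made up a replicate, p-values measure the spread between these samples only. Exact permutation tests were two-sided, for 3 against 3 within a genotype or with stage permuted within genotype. Genes named were the 4 members, the 3 genes of highest Pearson correlation with *SWEET1a* and *AAP7*, and genes of the table whose annotation matched fixed keywords for sugar, amino acid, peptide or nitrate import. Alternatives were pseudocounts of 1 and 0.01, other filters, median of ratios and upper quartile scaling, limma without trend, 1 fit over all 12 samples, the replicate block and leaving out each replicate. The scripts were tested on simulated data. Python 3.11.15, pandas 2.3.3, numpy 2.4.6, scipy 1.17.1 and matplotlib 3.10.9 were used.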

Additional observations from a re-analysis of the deposited data

Results flagged for a closer look

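*Zm00001d000072* (described as a protein of the NRT1/PTR family of nitrate and peptide transporters) had differences between stages of opposite sign in the 2 genotypes. WT kernels had 0.220, 0.282 and 0.412 FPKM at 12 DAP, followed by 0.581, 0.527 and 0.467 FPKM at 20 DAP, a log2 difference of 0.65. Mutant kernels had 0.364, 0.603 and 0.486 FPKM at 12 DAP, followed by 0.279, 0.349 and 0.332 FPKM at 20 DAP, a log2 difference of -0.46. All 3 values at 20 DAP lay above those at 12 DAP in the WT and below them in *smk7a*. The gene was under 1 FPKM in every sample and did not pass the filter, and the difference between the genotypes was not tested. These values are as deposited. After median of ratios scaling, chosen for this gene after seeing the data, the differences were 1.08 in the WT and -0.11 in *smk7a*, where the stages then overlapped.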

How the results depend on the processing

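Scaling between samples was the choice that moved most results. Under median of ratios and upper quartile scaling, *AAP7* changed with stage by -0.87 and -0.96 in the WT and by -0.83 and -0.92 in *smk7a*, below a fold change of 2 but with adjusted p-values under 0.05 from limma. *SWEET1a* in *smk7a* turned to 0.22 and 0.13. Over both genotypes *SWEET1a* was at -0.035 and -0.097, and *INCW4* turned to 0.29 and 0.24. Against the WT at 12 DAP the scaled differences were 1.05 and 1.09 (*SWEET1a*) and 1.80 and 1.84 (*AAP7*), and at 20 DAP 1.53 and 1.58, and 1.86 and 1.92. With a pseudocount of 1, *INCW4* at 12 DAP was at 0.44 and *AAP7* at 20 DAP at 2.25.

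The number of genes called between stages in the WT was 61, or 33 with a pseudocount of 1, 32 with median of ratios and 31 with upper quartile scaling. In *smk7a* it was 70, or 43 with median of ratios scaling. Lower genes made up 88.5% of the calls in the WT and 84.3% in *smk7a*, or 46.9% and 58.1% after median of ratios scaling. Between genotypes at 20 DAP it was 53, or 33, 28 and 28 under the same 3 settings as in the WT. At 12 DAP higher genes were 68 of 83 calls, or 28 of 58 after median of ratios scaling, and at 20 DAP 48 of 53, or 13 of 28.

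Leaving out 1 replicate at a time, *AAP7* kept its call, with changes of -1.55 to -1.29 (WT) and -1.37 to -1.17 (*smk7a*). *SWEET1a* was at -0.93 to -0.65 in the WT (limma adjusted p = 0.00415 to 0.0289) and -0.37 to -0.036 in *smk7a*. Over both genotypes *SWEET1a* ranged from -0.58 to -0.41 and *INCW4* from -0.22 to 0.19.

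Between stages in the WT, deviations of samples of the same number correlated at 0.036 to 0.17 and those of different numbers at -0.15 to -0.00082, so each sample correlated best with its own number, a hint from the data and not the design. In the other 3 comparisons same-number correlations ran from -0.29 to 0.17 and overlapped those of different numbers. The numbers were not taken to pair the samples, since not every correlation was above 0.1. With the replicate number as a block, 61, 70, 83 and 53 genes were called in WT stages, *smk7a* stages, 12 DAP and 20 DAP, sharing 61, 69, 83 and 53 with the fit without the block, and *AAP7* kept its call. Since no read totals were analysed, the precision of the invertase genes, under 1 FPKM in nearly all samples, is known only from the spread of 3 replicates.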
